A study of Mus musculus with 6 samples.

Results

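The genes of glycolysis and of the pentose phosphate pathway were followed in mouse leukemia cells and in normal pro-B cells. A list of 32 genes was used, chosen with earlier results of these data known. It covered glucose uptake, each glycolytic step to the enolases, the fate of pyruvate and lactate, the pentose phosphate enzymes and the oxygen-regulated factor Hif1a. All 32 were found by symbol among 33924 genes of the count table. The first leukemia group is leukemia 1 and the other is leukemia 92, primary leukemias of bone marrow with the genotype Mll-Af4/ N-RasG12D, with 2 libraries each. The third group is wildtype ProB cells (B220+CD43+IgM-) of bone marrow, also with 2 libraries. Per the labels, marrow of Mll-Af4 mice aged 6 to 8 weeks was depleted of lineage cells and sorted for c-Kit+ Sca1+ cells, which were cultured overnight with cytokines, received Cre by a retrovirus marked with TdTomato and then N-RasG12D by another retrovirus. Of these cells, 250000 were injected into lethally irradiated mice (900 rads) with 200000 wildtype helper marrow cells, so the marrow of a recipient holds helper-derived cells too. Each leukemia is a single disease, the age of the pro-B donors is not given in the sources used here, and the leukemic cells differ from the pro-B cells in culture history and transplantation as well as in genotype. The labels do not say whether the 2 replicates of a group are separate animals, so the spread between them may be only technical. A p-value for the leukemias against each other rests on that spread. A p-value against pro-B cells rests on the spread between 2 leukemias and that between the 2 pro-B replicates.

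Glycolysis turns glucose into pyruvate. Glucose enters through transporters, is trapped by hexokinases, is split after the phosphofructokinase and aldolase steps, and yields ATP in the lower part of the pathway. Pyruvate is then either reduced to lactate, which leaves by monocarboxylate transporters, or burned in mitochondria through pyruvate dehydrogenase, which the PDK kinases switch off. The pentose phosphate pathway branches off after the hexokinase step: its oxidative arm makes NADPH, and its other arm makes ribose for nucleotides. Proliferating lymphoid cells and leukemias are known for high glucose use, and several of these genes are textbook targets of HIF-1 and of MYC.

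Each library held between 22153444 and 27444759 gene counts. Levels are given as CPM, the counts scaled to a common library size with TMM factors, where 3 counts amount to 0.111 to 0.14 CPM. B-lineage markers were detected in all libraries, 12 of 12, with a summed level of 4960 to 7038 CPM in leukemia and 4838 and 4218 CPM in pro-B cells. Single markers went both ways. Cd79a (992 to 1442 against 450 and 412 CPM), Cd79b, Pax5, Vpreb1 and Vpreb3 were higher in every leukemia library. Rag1 (10.4 to 73 against 360 and 319 CPM), Rag2 (1.77 to 6.7 against 47.3 and 37.4 CPM) and Il7r (104 to 227 against 374 and 319 CPM) were lower in each. The others overlapped. The replicates of leukemia 1 stood apart from each other (SD of log2 differences 0.929, against 0.209 in leukemia 92 and 0.212 in pro-B cells). Between a leukemia 1 and a leukemia 92 library this SD was 0.774 to 0.834. The 15 granulocyte and monocyte markers summed to 19166 CPM in leukemia 1 replicate 2, against 486 in its replicate 1, 1998 and 1263 in leukemia 92 and 626 and 631 in pro-B cells. None of these 15 was at 0 in any library. The sum of the 9 T and NK cell markers ran the other way, at 11.5 to 35.4 CPM in leukemia and 363 and 346 CPM in pro-B cells. So did that of 7 plasmacytoid dendritic cell markers (307 to 422 against 3211 and 3613 CPM). Of the T and NK cell markers, Cd3d, Cd3e and Cd3g were above both pro-B libraries in leukemia 1 replicate 2. They were at 4.58, 3.84 and 4.88 CPM there, against 1.91 to 4.6 CPM in pro-B cells. The others were lower in every leukemia library. In such bulk samples a change in the make-up of the cells and a change of RNA per cell cannot be told apart, and results are given below with and without the leukemia 1 libraries where these decide a call.

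From glucose entry to enolase, 10 of the 18 members tested rose in leukemia against pro-B cells, Hk1 fell and 7 did not pass. For this comparison the reads of a leukemia were added up, which gave 2 values for leukemia and 2 for pro-B cells, and the edgeR quasi-likelihood test was fitted on 15280 genes with adjustment over them. Of 31 members tested, 13 rose (41.9%), 2 fell (6.45%) and 16 did not pass, whereas 9.54% of all genes tested rose and 10.7% fell. The members were chosen with earlier results of these data known, so these shares describe the list and are not a test of it. The median log2 change of the tested members was 0.49, against 0.02 for all genes. Eno2, the neuronal enolase, was left out of the test by the filter on low counts, with 3 to 31 reads in a library. In 16 of the 31 members all 4 leukemia libraries lay above both pro-B libraries, and in 5 all lay below, against 23.4% and 27.3% of all genes tested. The other 10 overlapped (Slc2a3, Pfkl, Pfkm, Aldoc, Eno3, Pdk1, Pdk3, Taldo1, Tkt and Hif1a). Summed over the 32 members, the level was 4400 and 5156 CPM in leukemia 1, 5241 and 5178 CPM in leukemia 92, and 3398 and 3583 CPM in pro-B cells.

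**Figure D1:**
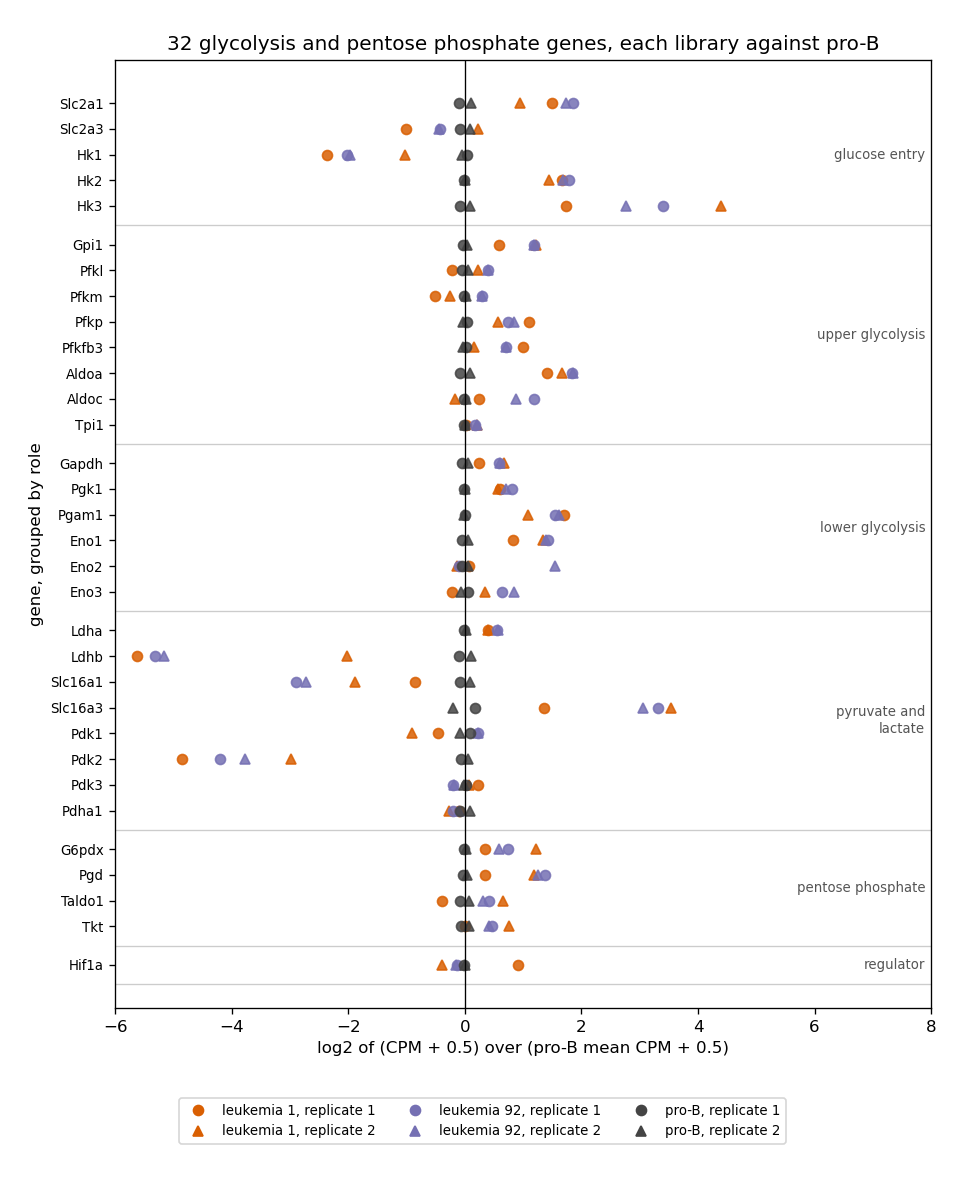
Each row is a gene of the list, grouped by role, and each point is a library, placed by the log2 ratio of its level (CPM + 0.5) to the pro-B mean (CPM + 0.5). Circles are replicate 1 and triangles replicate 2, in orange for leukemia 1, purple for leukemia 92 and grey for pro-B cells. Leukemia points lie to the right of both pro-B points for 16 tested genes and to the left for 5, with Hk3 and Slc16a3 farthest right and Ldhb and Pdk2 farthest left.

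The calls rested on few libraries. The count of 13 rises became 8 without leukemia 1 replicate 1, where 6.39% of all genes tested rose and 6.99% fell. It became 6 without leukemia 1 replicate 2, where 6.89% of all genes rose and 12% fell. In each of these fits 2 members fell, Slc16a1 and Pdk2 in the former and Hk1 and Ldhb in the latter. Of the 13, Hk2, Aldoa and Pgam1 passed with either library left out. When either pro-B library was removed, edgeR called 0 genes in all, while 9 members were higher and 2 or 3 lower with an unadjusted p under 0.05. DESeq2 on all libraries called 16 members higher and 4 lower, against 13.9% and 14.3% of all genes, including all 13 and both of edgeR's. The added genes were Gapdh, Ldha and Tkt, higher, and Ldhb and Slc16a1, lower.

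The promoters of 6 members with a single annotated start are shown because the results turn on these genes: the glucose transporter and hexokinases that rose, Pgam1, and the lactate transporters Slc16a1 and Slc16a3, whose leukemia libraries lay on opposite sides of pro-B cells. The windows run from 250 bases before to 50 after the start, 5′ to 3′ on the gene's strand, and are RefSeq's on GRCm38.p6, while the counts were made on mm9. Capitals mark the E-box CACGTG, which MYC family factors bind, and the core of the HIF response element, ACGTG or GCGTG, on either strand, where each CACGTG also holds ACGTG. Slc2a1 lies at chr4:119108495-119108794 on the + strand, Hk2 at chr6:82774405-82774704 and Hk3 at chr13:55021336-55021635 on the - strand, Pgam1 at chr19:41911621-41911920, Slc16a1 at chr3:104638414-104638713 and Slc16a3 at chr11:120948817-120949116 on the + strand.
Slc2a1: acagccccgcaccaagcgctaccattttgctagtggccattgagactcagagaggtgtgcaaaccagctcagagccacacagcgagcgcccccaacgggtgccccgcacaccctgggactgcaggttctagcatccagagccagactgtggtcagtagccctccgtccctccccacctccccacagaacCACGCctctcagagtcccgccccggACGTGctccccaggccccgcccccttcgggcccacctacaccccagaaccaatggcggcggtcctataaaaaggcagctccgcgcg
Hk2: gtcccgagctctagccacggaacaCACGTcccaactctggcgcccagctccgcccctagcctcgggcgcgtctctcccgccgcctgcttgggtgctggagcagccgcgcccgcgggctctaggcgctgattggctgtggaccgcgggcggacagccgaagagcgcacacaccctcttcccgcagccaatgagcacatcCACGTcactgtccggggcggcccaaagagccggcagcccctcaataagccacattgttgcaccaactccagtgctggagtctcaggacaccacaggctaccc
Hk3: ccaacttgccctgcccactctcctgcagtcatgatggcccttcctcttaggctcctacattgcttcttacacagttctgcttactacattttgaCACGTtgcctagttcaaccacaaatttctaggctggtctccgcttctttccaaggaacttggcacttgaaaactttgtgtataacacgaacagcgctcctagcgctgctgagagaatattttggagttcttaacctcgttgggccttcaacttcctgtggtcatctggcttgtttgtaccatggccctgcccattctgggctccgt
Pgam1: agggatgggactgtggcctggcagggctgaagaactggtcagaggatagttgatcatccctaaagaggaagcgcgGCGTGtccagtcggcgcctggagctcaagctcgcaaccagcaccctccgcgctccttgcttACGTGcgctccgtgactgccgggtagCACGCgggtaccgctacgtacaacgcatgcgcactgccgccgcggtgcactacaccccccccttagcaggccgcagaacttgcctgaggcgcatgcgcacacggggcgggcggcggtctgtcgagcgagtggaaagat
Slc16a1: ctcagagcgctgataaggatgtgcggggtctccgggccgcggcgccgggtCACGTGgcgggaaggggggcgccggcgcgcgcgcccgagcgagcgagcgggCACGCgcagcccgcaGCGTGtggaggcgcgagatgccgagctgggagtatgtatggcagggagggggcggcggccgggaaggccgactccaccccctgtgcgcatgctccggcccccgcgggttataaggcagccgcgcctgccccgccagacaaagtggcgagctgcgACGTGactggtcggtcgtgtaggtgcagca
Slc16a3: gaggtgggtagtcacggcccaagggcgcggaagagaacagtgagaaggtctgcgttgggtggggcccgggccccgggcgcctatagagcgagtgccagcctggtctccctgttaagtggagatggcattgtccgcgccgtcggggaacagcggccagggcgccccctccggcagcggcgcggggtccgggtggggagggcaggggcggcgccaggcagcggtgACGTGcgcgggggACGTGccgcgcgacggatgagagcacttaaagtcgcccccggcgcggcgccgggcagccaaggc

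Slc16a1 held 1 CACGTG and 5 copies of the HIF core in this window, with the CACGTG counted once on each strand. Pgam1 held 3 copies of the HIF core, Slc2a1, Hk2 and Slc16a3 held 2 each, and Hk3 held 1. Of the 32 members 31 matched the promoter table, 10 of them with more than 1 start, which gave 45 windows. The HIF core was present in 36 of these 45 windows (80%), against 43.8% of all 32851 windows of this length, and CACGTG in 6 (13.3%), against 7.15%. Windows of the same gene were counted singly. The member windows and all windows were not matched for their content of CG, which each motif holds. CACGTG was found for Pfkm, Pfkfb3, Ldha, Slc16a1, Pdk2 and Hif1a, with 2 copies for Ldha. This group holds genes that rose, fell or did not pass, and a match describes the letters of a window only.

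At glucose entry the transporter Slc2a1 and the hexokinases Hk2 and Hk3 rose, and the hexokinase Hk1 fell. The summed level of the 5 members overlapped, with 154 and 280 CPM for leukemia 1, 223 and 202 CPM for leukemia 92, and 183 and 192 CPM for pro-B cells. Slc2a1 encodes GLUT1, the basal glucose transporter of most cells. Its level was 44.8 and 30.5 CPM in leukemia 1, 57.3 and 53.3 CPM in leukemia 92, and 14.4 and 16.8 CPM in pro-B cells. No leukemia library overlapped the pro-B libraries, and the rise was 3.01-fold (log2 change 1.59, SE 0.28, edgeR adjusted p = 0.034, and 0.075 without leukemia 1 replicate 1). Slc2a3, the high-affinity transporter GLUT3, had 40.9 and 97.4 CPM in leukemia 1, 61.7 and 61.2 CPM in leukemia 92, and 77.8 and 88.2 CPM in pro-B cells. It overlapped and did not pass (log2 change -0.33, edgeR adjusted p = 0.15).

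The order of the 3 hexokinases differed between the cells. Hk1, the broadly expressed mitochondria-bound form, measured 13.7 and 35.4 CPM in leukemia 1, 17.4 and 18 CPM in leukemia 92, and 74.6 and 70.1 CPM in pro-B cells. It fell 3.38-fold (log2 change -1.76, SE 0.20, edgeR adjusted p = 0.017, and 0.085 without leukemia 1 replicate 1). Hk2, the inducible form typical of muscle and tumors, measured 42.3 and 36.3 CPM in leukemia 1, 46.3 and 43.4 CPM in leukemia 92, and 13 and 13.2 CPM in pro-B cells. The 4 leukemia libraries were close together, and the rise was 3.24-fold (log2 change 1.69, SE 0.17, edgeR adjusted p = 0.015). Hk3, a form known from myeloid cells, measured 12.4 and 80.8 CPM in leukemia 1, 40.3 and 25.8 CPM in leukemia 92, and 3.15 and 3.59 CPM in pro-B cells. Each leukemia library was above the pro-B libraries, but those of leukemia 1 spanned a 6.5-fold range. The log2 change of Hk3 was 3.60 (SE 0.25, edgeR adjusted p = 0.01). Once leukemia 1 replicate 2 was removed it was 2.79 (adjusted p = 0.052). The order of the leukemia libraries for Hk3 was that of their granulocyte and monocyte markers (486, 1263, 1998 and 19166 CPM), and the part of those cells in the Hk3 level was not tested. In leukemia 1 replicate 1, 12 of the 15 markers were below both pro-B libraries and 3 were above, Itgam at 177 CPM against 92.5 and 77.3 CPM, Lyz2 at 125 against 99.3 and 94.3 CPM, and Retnlg at 5 against 4.33 and 4.72 CPM.

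On a per-length scale, in CPM per kilobase of annotated exon, pro-B cells had 14.9 ± 0.662 for Hk1 (SD, n = 2), 2.33 ± 0.0229 for Hk2 and 1 ± 0.0927 for Hk3. Leukemia 92 had 3.65 ± 0.0942 for Hk1, 7.99 ± 0.357 for Hk2 and 9.85 ± 3.06 for Hk3. In leukemia 1 the values were 5.07 ± 3.16, 7 ± 0.759 and 13.9 ± 14.4. Hk1 was thus the most abundant hexokinase transcript of the 3 in pro-B cells and the least abundant in leukemia 92, while the spread between the leukemia 1 libraries leaves their order there undecided.

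**Figure D2:**
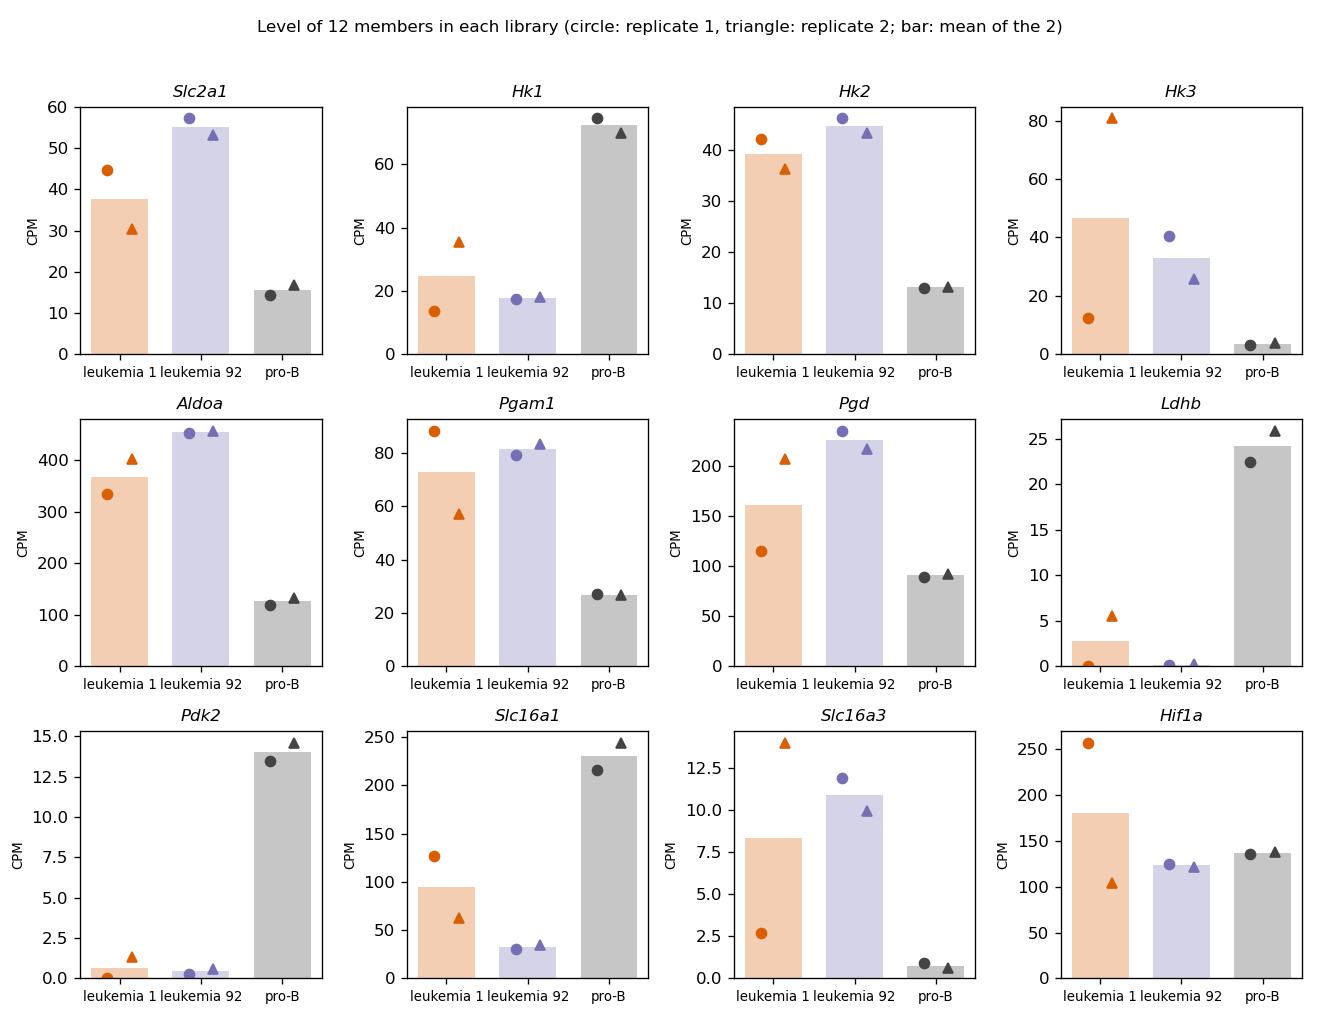
Levels in CPM of 12 members in each library, with leukemia 1, leukemia 92 and pro-B cells along each horizontal axis. Bars are the mean of 2 libraries, circles are replicate 1 and triangles replicate 2. Hk2 and Aldoa are close together in the leukemia libraries and well above pro-B, whereas Hk3, Pgd, Slc16a3 and Hif1a differ widely between the replicates of leukemia 1.

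In upper glycolysis 4 of 8 members rose (50%, against 9.54% of all genes tested) and none fell. All 8 had a positive log2 change, although that of Pfkm was negative in several alternative fits (-0.02 to -0.05). Gpi1, the isomerase after hexokinase, gave 372 and 579 CPM in leukemia 1, 565 and 562 CPM in leukemia 92, and 241 and 256 CPM in pro-B cells. Leukemia was higher in all libraries (log2 change 1.08, SE 0.16, edgeR adjusted p = 0.024, and 0.099 without leukemia 1 replicate 2). Of the phosphofructokinases, which catalyse the committed step, the platelet form Pfkp rose 1.77-fold and the other forms did not pass. Pfkp measured 148 and 101 CPM in leukemia 1, 116 and 124 CPM in leukemia 92, and 70.7 and 66.8 CPM in pro-B cells (edgeR adjusted p = 0.021, and 0.061 without leukemia 1 replicate 1). The liver form Pfkl had a log2 change of 0.24 and the muscle form Pfkm of 0.02, with edgeR adjusted p values of 0.43 and 0.98.

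Pfkfb3 makes the sugar bisphosphate that activates phosphofructokinase. It had levels of 284 and 160 CPM in leukemia 1, 235 and 235 CPM in leukemia 92, and 145 and 140 CPM in pro-B cells. Leukemia was 1.6-fold higher (log2 change 0.68, SE 0.13, edgeR adjusted p = 0.037, and 0.24 without leukemia 1 replicate 1). Aldoa, the main aldolase, had one of the clearest rises: 333 and 402 CPM in leukemia 1, 453 and 457 CPM in leukemia 92, and 118 and 133 CPM in pro-B cells. The change was 3.3-fold (log2 change 1.72, SE 0.19, edgeR adjusted p = 0.017, 0.021 and 0.024 without leukemia 1 replicates 1 and 2). The brain aldolase Aldoc was low (leukemia 5.54 to 15 CPM, pro-B 6.22 and 6.39 CPM) and did not pass (adjusted p = 0.34). Tpi1, which interconverts the products of aldolase, was at 180 to 207 CPM in leukemia and 177 and 180 CPM in pro-B cells, a log2 change of 0.16 that did not pass (adjusted p = 0.39).

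In lower glycolysis 3 of 5 members tested rose (60%, against 9.54% of all genes tested). Pgam1, the phosphoglycerate mutase, had 88.4 and 57.1 CPM in leukemia 1, 79.3 and 83.3 CPM in leukemia 92, and 27 and 26.6 CPM in pro-B cells. The groups did not overlap, and the rise was 2.88-fold (log2 change 1.53, SE 0.15, edgeR adjusted p = 0.015, 0.041 and 0.013 without leukemia 1 replicates 1 and 2). Eno1, the enolase of most tissues, gave 213 and 306 CPM in leukemia 1, 326 and 317 CPM in leukemia 92, and 116 and 125 CPM in pro-B cells. It rose 2.44-fold (edgeR adjusted p = 0.023, and 0.063 without leukemia 1 replicate 2). Pgk1, the kinase of the earliest ATP-yielding step, was 129 to 153 CPM in leukemia and 86.5 and 87.7 CPM in pro-B cells (1.61-fold, edgeR adjusted p = 0.043, 0.058 and 0.057 without leukemia 1 replicates 1 and 2). Gapdh, often used as a reference gene, was at 444 to 599 CPM against 362 and 390 CPM, higher in each leukemia library, but its log2 change of 0.55 did not pass (edgeR adjusted p = 0.059). Eno3, the muscle enolase, was at 8.29 to 17.8 CPM against 10.2 and 9.28 CPM and overlapped (adjusted p = 0.34). Eno2 was at 0.111 to 0.203 CPM in all libraries but leukemia 92 replicate 2, which had 1.45 CPM from 31 reads.

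Several of these genes share much of their transcript sequence with other annotated genes, so their levels are less certain than those of the hexokinases. Of all 50-base stretches of the annotated transcript, the share also found in another annotated gene was 82.5% for Gapdh, 72.2% for Eno1, 68% for Pgk1 and 41.5% for Pgam1, against 0% for Hk2, Hk3, Pgd, Slc16a1 and Slc16a3. It was 25.3% for Gpi1, 27% for Ldhb, 16.6% for Ldha, 17.1% for Pfkp and 13.5% for Aldoa. Reads that did not align uniquely were 23.6% to 27.3% of the table's entries in a library, highest in leukemia 1 replicate 2, and are not part of the gene counts.

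At the fate of pyruvate the members split, with 1 rise, 1 fall and 6 of 8 that did not pass (median log2 change -0.15). The rise and the fall are 12.5% each, against 9.54% and 10.7% of all genes tested. Ldha, the lactate dehydrogenase subunit that favours lactate, was among the most abundant members: 700 and 694 CPM in leukemia 1, 773 and 783 CPM in leukemia 92, and 521 and 538 CPM in pro-B cells. It was higher in each leukemia library, with a log2 change of 0.49 that did not pass (SE 0.14, edgeR adjusted p = 0.078). Ldhb, the subunit that favours pyruvate, was at 22.4 and 25.9 CPM in pro-B cells, from 604 and 665 reads. In leukemia 92 it had 3 and 4 reads (0.123 and 0.187 CPM), and in leukemia 1 it had 0 reads in replicate 1 (upper limit 0.122 CPM) and 150 reads (5.54 CPM) in replicate 2. All leukemia libraries were below the pro-B libraries. The edgeR adjusted p of Ldhb was 0.11 with all libraries and 0.019 without leukemia 1 replicate 2.

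The leukemia libraries lay below pro-B cells for one lactate transporter and above them for the other. Slc16a1 encodes MCT1, which carries lactate into or out of cells, and Slc16a3 encodes MCT4, the exporter typical of strongly glycolytic cells. Slc16a1 had levels of 127 and 62 CPM in leukemia 1, 30.3 and 34.4 CPM in leukemia 92, and 216 and 244 CPM in pro-B cells. Each leukemia library was lower, but the log2 change of -1.88 (SE 0.53) did not pass (edgeR adjusted p = 0.082; once leukemia 1 replicate 1 was removed, 0.041). Slc16a3 had 2.72 and 14 CPM in leukemia 1, 11.9 and 9.95 CPM in leukemia 92, and 0.925 and 0.585 CPM in pro-B cells. It rose 13-fold (log2 change 3.70, SE 0.42, edgeR adjusted p = 0.017, which became 0.086 once leukemia 1 replicate 2 was removed). As with Hk3, the leukemia libraries followed the order of their granulocyte and monocyte markers, whose part in the level of Slc16a3 was not tested. The lowest leukemia value, in leukemia 1 replicate 1, came from 67 reads, and the pro-B values came from 25 and 15 reads.

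Among the kinases that switch off pyruvate dehydrogenase, Pdk2 fell and the others did not pass. Pdk2 was at 13.5 and 14.6 CPM in pro-B cells and at 0.288 and 0.561 CPM in leukemia 92. In leukemia 1 it had 0 reads in replicate 1 (upper limit 0.122 CPM) and 36 reads, or 1.33 CPM, in replicate 2. All leukemia libraries were far below pro-B cells, by 25.1-fold in the fit (log2 change -4.65, SE 0.38, edgeR adjusted p = 0.013, and 0.054 without leukemia 1 replicate 2). Pdk1, a known HIF target, gave 55.3 and 40.7 CPM in leukemia 1, 88.8 CPM in each library of leukemia 92, and 80.6 and 72.2 CPM in pro-B cells (edgeR adjusted p = 0.8). Pdk1 thus lay below pro-B cells in leukemia 1 and above in leukemia 92, a difference given with its test below. Pdk3 (46.8 to 62.8 CPM against 54.7 and 52.9 CPM) overlapped. Pdha1, a catalytic subunit of pyruvate dehydrogenase, was at 111 to 125 CPM in leukemia and 126 and 142 CPM in pro-B cells, a log2 change of -0.16 that did not pass (adjusted p = 0.41). Leukemia 1 replicate 2 held the Ldhb and Pdk2 reads of its group. Its T and NK cell markers summed to 35.4 CPM, against 32.7 CPM in leukemia 92 replicate 1, but their make-up differed. Cd3d, Cd3e and Cd3g were at 4.58, 3.84 and 4.88 CPM, against 0.164, 0 and 0.0822 CPM in leukemia 92 replicate 1. Klrd1 went the other way, at 2.88 against 18.7 CPM. Leukemia 92 replicate 1 had 3 reads of Ldhb and 7 of Pdk2. In leukemia 1 replicate 2 the granulocyte and monocyte markers summed to 19166 CPM, against 486 to 1998 CPM in the other leukemia libraries. The part of other cells in the Ldhb and Pdk2 reads was not tested.

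The dehydrogenases G6pdx and Pgd, which make NADPH in the oxidative arm of the pentose phosphate pathway, rose, while Pgls, the enzyme between them, fell (values below). G6pdx, the rate-limiting dehydrogenase, had levels of 70.6 and 131 CPM in leukemia 1, 93.4 and 84 CPM in leukemia 92, and 55 and 56.4 CPM in pro-B cells. The groups did not overlap (1.72-fold, log2 change 0.78, SE 0.12, edgeR adjusted p = 0.025, 0.067 and 0.16 without leukemia 1 replicates 1 and 2). Pgd, the dehydrogenase that follows, had 115 and 207 CPM in leukemia 1, 235 and 217 CPM in leukemia 92, and 88.7 and 92.4 CPM in pro-B cells (2.17-fold, edgeR adjusted p = 0.044, and 0.19 without leukemia 1 replicate 2). The enzymes that shuttle sugars between the pathways did not pass. Taldo1 gave 118 and 244 CPM in leukemia 1, 209 and 193 CPM in leukemia 92, and 147 and 164 CPM in pro-B cells (edgeR adjusted p = 0.19). Tkt was at 339 to 568 CPM against 322 and 354 CPM (log2 change 0.45, edgeR adjusted p = 0.073). All 4 genes were higher in the library of leukemia 1 with granulocyte transcripts than in its replicate, by 1.67-fold for Tkt to 2.08-fold for Taldo1, and the part of those cells was not tested.

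Genes beside these enzymes in the pathways did not move as a body. A further list of 51 genes (other isoforms, the remaining steps, the pyruvate dehydrogenase complex and carriers) had 38 tested. Of these 4 rose (10.5%), 6 fell (15.8%) and 28 did not pass, against 9.54% and 10.7% of all genes tested. The median log2 change was -0.05. In the pentose phosphate branch Pgls, which acts between G6pdx and Pgd, fell from 190 and 201 CPM to 41.1 and 97.8 CPM in leukemia 1 and 52.2 and 55 CPM in leukemia 92 (log2 change -1.65, edgeR adjusted p = 0.015, and 0.077 without leukemia 1 replicate 1). Rpia, which makes ribose phosphate, fell from 97.8 ± 1.45 CPM (SD, n = 2) to 44.6 ± 5.26 CPM (SD, n = 4), with an edgeR adjusted p of 0.017. Prps2, which passes ribose on to nucleotide synthesis, fell from 217 ± 3.98 to 93.5 ± 4.46 CPM (edgeR adjusted p = 0.016). Both calls held without either leukemia 1 library. The sugar phosphate mutase gene Pgm2l1 fell as well (log2 change -1.35, edgeR adjusted p = 0.019).

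The rises of that list included Fbp1, the phosphatase that runs opposite to phosphofructokinase, from 8.44 and 5.85 CPM in pro-B cells to 25.2 and 38.3 CPM in leukemia 1 and 45.9 and 47.7 CPM in leukemia 92 (log2 change 2.48, SE 0.34, edgeR adjusted p = 0.022). Txnip, which restrains glucose uptake, rose from 398 ± 4.8 to 705 ± 133 CPM (edgeR adjusted p = 0.03, and 0.051 without leukemia 1 replicate 2). Gpd2, of the glycerol phosphate shuttle, rose 0.61 in log2 (edgeR adjusted p = 0.036; 0.23 and 0.057 when leukemia 1 replicates 1 and 2 were removed). The entry 9630033F20Rik, an older symbol of the p53-induced phosphatase gene Tigar, rose 0.85 in log2 (adjusted p = 0.04, 0.11 and 0.058 without these replicates). Pyruvate kinase, listed as Pkm2 in the table, had levels of 477 and 597 CPM in leukemia 1, 734 and 688 CPM in leukemia 92, and 407 and 434 CPM in pro-B cells and did not pass (log2 change 0.59, edgeR adjusted p = 0.12).

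Hif1a itself overlapped. It had 257 and 104 CPM in leukemia 1, 125 and 122 CPM in leukemia 92, and 136 and 138 CPM in pro-B cells (log2 change 0.14, edgeR adjusted p = 0.64), and its log2 change was -0.24 without leukemia 1 replicate 1. Among 26 partners, regulators and non-glycolytic targets of HIF-1, 24 were tested: 4 rose (16.7%), 1 fell (4.17%) and 19 did not pass. Of all genes tested 9.54% rose and 10.7% fell. The median log2 change of the 24 was 0.31. Egln3, an oxygen-sensing hydroxylase and HIF target, rose from 9.96 and 10.8 CPM to 105 and 179 CPM in leukemia 1 and 104 and 85.4 CPM in leukemia 92 (log2 change 3.53, SE 0.24, edgeR adjusted p = 0.01). Its relative Egln1 fell from 79.1 ± 0.951 to 37.9 ± 6.18 CPM (adjusted p = 0.02). Ddit4 (log2 change 2.16), Ero1l (0.93) and Hif1an (0.49) rose with edgeR adjusted p values of 0.015, 0.025 and 0.048. Without leukemia 1 replicate 1 these became 0.12, 0.053 and 0.59, and without replicate 2 that of Hif1an was 0.094. Cycling genes were lower in the same leukemia libraries, at 1767 to 3179 CPM summed over 14 genes against 5239 and 5098 CPM in pro-B cells. Of the 14, 6 fell (42.9%), against 10.7% of all genes tested.

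Ratios of reads of related genes within a library need no library size, and their differences between libraries need no gene length. Of 12 such pairs, 4 ratios were higher and 6 lower in all leukemia libraries than in both pro-B libraries. The other 2 overlapped (Eno2 to Eno1 and Pdk3 to Pdk1). Some pairs share a gene, and no share over other gene pairs was taken, so these counts describe the listed pairs only. Some gaps were narrow. Pfkm to Pfkl was 0.276 to 0.369 in leukemia and 0.401 and 0.385 in pro-B cells, and Pfkp to Pfkl was 1.62 to 3.29 against 1.38 and 1.22. The ratio of Hk2 to Hk1 was 0.174 and 0.188 in pro-B cells, 3.08 and 1.03 in leukemia 1 and 2.66 and 2.41 in leukemia 92. The ratio of Slc2a3 to Slc2a1 was 5.42 and 5.26 in pro-B cells, 0.912 and 3.19 in leukemia 1 and 1.08 and 1.15 in leukemia 92. That of Slc16a3 to Slc16a1 was 0.00429 and 0.0024 in pro-B cells, 0.0214 and 0.225 in leukemia 1 and 0.393 and 0.289 in leukemia 92. Ldhb to Ldha was 0.0429 and 0.0482 in pro-B cells, 0 and 0.00799 in leukemia 1 and 0.00016 and 0.000239 in leukemia 92. For the minor forms of aldolase and enolase, Aldoc to Aldoa was 0.0525 and 0.0479 in pro-B cells and 0.0138 to 0.033 in leukemia, and Eno3 to Eno1 was 0.0879 and 0.0745 against 0.0389 to 0.0562.

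**Figure D3:**
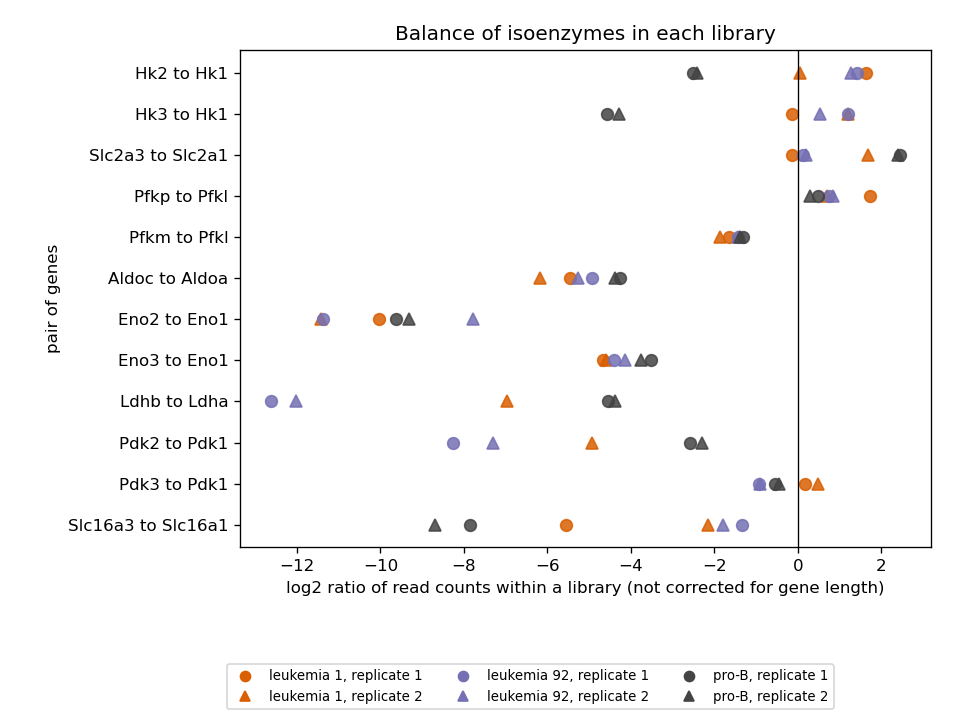
Each row is a pair of genes and each point a library, placed by the log2 ratio of its read counts, which is not corrected for gene length. Colors and symbols mark leukemia 1 (orange), leukemia 92 (purple), pro-B cells (grey), replicate 1 (circle) and replicate 2 (triangle), and libraries with 0 reads of Ldhb or Pdk2 have no point. The Hk2 to Hk1 and Hk3 to Hk1 ratios lie to the right of pro-B cells in all leukemia libraries, and the Ldhb to Ldha and Pdk2 to Pdk1 ratios lie to the left.

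Leukemia 92 and leukemia 1 were compared in a fit over all 6 libraries. Of 31 members tested edgeR called 0 in either direction, against 1.82% of 14979 genes higher and 1.27% lower, and 3 members had an unadjusted p under 0.05 with higher values in leukemia 92, 2 with lower values. DESeq2 called 3 members higher in leukemia 92 and 1 lower, against 9.04% and 9.15% of all genes. Those higher with DESeq2 were Pdk1 (log2 change 0.89 in the edgeR fit, edgeR adjusted p = 0.074), Pfkm (0.70, edgeR adjusted p = 0.082) and Aldoc (1.03, edgeR adjusted p = 0.1). The gene lower with DESeq2 was Slc16a1 (log2 change -1.55, SE 0.36, edgeR adjusted p = 0.09). Of the HIF list Ankrd37, a HIF target, was called higher in leukemia 92, at 50 and 45.7 CPM against 10 and 9.9 CPM in leukemia 1 and 1.89 and 2.18 CPM in pro-B cells (log2 change 2.26, SE 0.16, edgeR adjusted p = 0.023). Without 1 library of leukemia 92 or of pro-B cells, edgeR called 0 of all genes in this comparison, Ankrd37 included, with 933 to 1253 higher at an unadjusted p under 0.05.

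The direction of many differences depended on which leukemia 1 library was used. Of the 29 tested members with reads in every library, 14 had opposite signs when leukemia 92 was compared with replicate 1 alone and with replicate 2 alone. The share over all genes was not taken. Some of these log2 changes were small, as for Gpi1 (0.60 and -0.03), Gapdh (0.36 and -0.06) and Pdha1 (-0.05 and 0.13). Hk3 had a log2 change of 1.42 against replicate 1 and -1.28 against replicate 2, Slc16a3 of 2.01 and -0.34, and Hif1a of -1.06 and 0.25. The differences of Pfkm (0.83 and 0.58), Aldoc (0.83 and 1.29), Pdk1 (0.68 and 1.13), Slc2a1 (0.30 and 0.87) and Slc16a1 (-1.98 and -0.93) kept their sign. In such fits 1 leukemia 1 library is assumed to vary like the other groups, and many genes were called. Against replicate 1 these were 20 members higher and 5 lower, beside 25.2% and 27.3% of all genes tested. Against replicate 2 they were 9 higher and 10 lower, beside 24.5% and 26% of all genes.

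**Figure D4:**
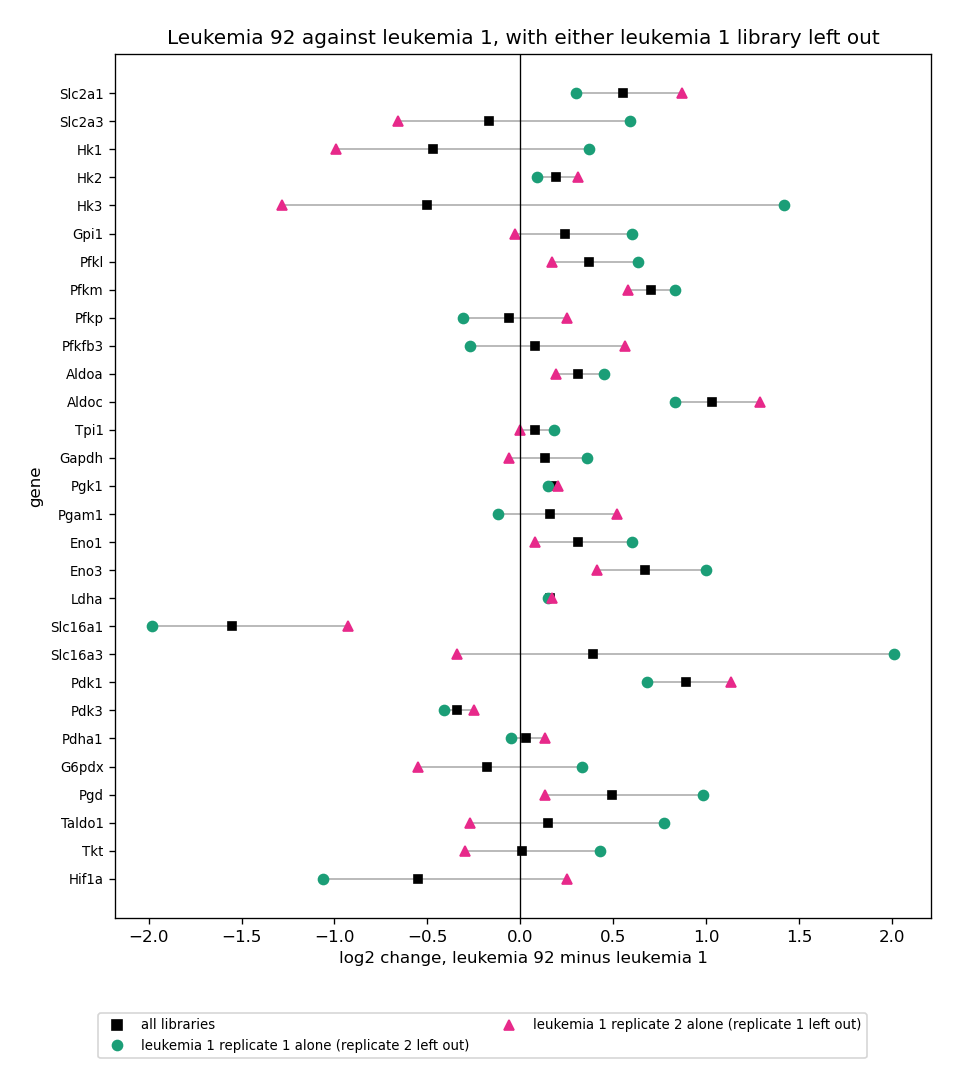
The log2 change of leukemia 92 minus leukemia 1 for 29 members, with black squares for all libraries, green circles for leukemia 1 replicate 1 alone and pink triangles for replicate 2 alone. Ldhb and Pdk2 are not drawn because leukemia 1 replicate 1 had 0 reads of them. The circle and the triangle lie on opposite sides of 0 for 14 members, with the longest spans for Hk3 and Slc16a3.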

How the data were processed

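RNA sequencing counts of 6 libraries were used. The deposited table holds raw counts, whole-number reads per gene, with 33924 genes and 5 entries that name no gene. The latter held 34% to 39.6% of a library's entries and were left out. Per the submitters' processing notes, STAR 2.4, HTSeq 0.6.1, DESeq2 and mm9 were used, with no role or order given. Neither annotation nor strandedness is stated in those sources, so a gene and an overlapping antisense gene cannot be told apart.

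Computed here, with edgeR 4.0.16 in R 4.3.3: filterByExpr (minimum count 10), TMM, the robust quasi-likelihood test and Benjamini-Hochberg adjustment over all genes tested, with calls at an adjusted p under 0.05. SE was taken from the F statistic. Leukemia against pro-B used counts summed per leukemia (2 against 2), and leukemia 92 against leukemia 1 used all 6 libraries. Alternatives were RLE factors, DESeq2 1.42.0, no filter, each library left out, other fits and the replicate number as a block. The fits were tested on simulated data. With so few libraries, a member that did not pass may still differ between the groups. Floors of 3 counts cover counting error only.

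Exon lengths (protein-coding transcripts) and shared 50-base stretches (all annotated transcripts) came from GENCODE M21, promoters from RefSeq (GRCm38.p6). Beyond the 32 members, of each further list all called genes were named, or with more than 8 the 4 with the smallest p in each direction. All 174 list entries matched a symbol, older ones included. Members and lists were chosen with earlier results of these data known. The list markers of erythroid (1.23 to 3.99 CPM in leukemia, 76.5 and 181 in pro-B cells), megakaryocyte (0.813 to 5.8 against 1.07 and 5.85) and stromal and endothelial cells (332 to 556 against 204 and 209) were summed too.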

Additional observations from a re-analysis of the deposited data

Results flagged for a closer look

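For 4 of the 32 members examined, 1 of the 4 leukemia libraries stood apart by Dixon's rule. Its gap to the nearest other, divided by the range, exceeded the 95% critical value for 4 samples. For independent samples chance gives about 1 in 20. These are 2 libraries of each leukemia, so that rate need not hold here. Gpi1 was low in leukemia 1 replicate 1, at 372 CPM against 562 to 579 CPM in the others. Hif1a was high in the same library, at 257 CPM against 104 to 125 CPM. Ldhb was high in leukemia 1 replicate 2, at 5.54 CPM against 0 to 0.187 CPM. Eno2 was high in leukemia 92 replicate 2, at 1.45 CPM against 0.111 to 0.203 CPM.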

How the results depend on the processing

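RLE factors and the absence of a filter changed no member's call in either comparison. For leukemia against pro-B, the 13 members called higher became 0 to 13 when 1 library was left out (0 without either pro-B library). The 2 called lower became 0 to 2, and 4 with DESeq2. Over all genes the 1458 called higher became 0 to 1544, and 2344 with DESeq2, and the 1631 called lower became 0 to 1725, and 2605 with 1 coefficient per group over all 6 libraries. For leukemia 92 against leukemia 1, the 0 members higher became 0 to 20 with 1 library left out and 3 with DESeq2, and the 0 lower became 0 to 10 and 1. Over all genes 273 higher and 190 lower became 0 to 3909 and 0 to 4224 with 1 library left out, 1323 and 1340 with DESeq2, and 0 and 0 with only the 4 leukemia libraries, where 1284 and 1082 had an unadjusted p under 0.05. The cause of these moves was not tested.

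Groups share replicate numbers, but same-numbered libraries did not deviate together (correlations -0.18, 0.055 and -0.036), so the numbers were not taken as pairs. With the replicate block, 8 members were called higher in leukemia than in pro-B cells, and 0 genes were called higher and 0 lower between the leukemias (1583 and 1459 at an unadjusted p under 0.05).

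Some log2 changes turned sign. Against pro-B cells, leaving out 1 library gave -0.04 to 0.07 for Pfkm, -0.05 to 0.02 for Pdk3 and -0.24 to 0.46 for Hif1a, and Pfkm was -0.02 without pro-B replicate 1, -0.05 with all 6 libraries and -0.05 with the replicate block. Between the leukemias the ranges were -0.66 to 0.59 for Slc2a3, -0.99 to 0.37 for Hk1, -1.28 to 1.42 for Hk3, -0.03 to 0.60 for Gpi1, -0.31 to 0.25 for Pfkp, -0.27 to 0.56 for Pfkfb3, -0.06 to 0.36 for Gapdh and -0.12 to 0.52 for Pgam1. They were -0.34 to 2.01 for Slc16a3, -0.05 to 0.13 for Pdha1, -0.55 to 0.33 for G6pdx, -0.27 to 0.77 for Taldo1, -0.30 to 0.43 for Tkt and -1.06 to 0.25 for Hif1a. Those of Ldhb (-5.12 to 4.94) and Pdk2 (-1.65 to 6.36) include a fit against 0 reads, which depends on the prior count. All these extremes between the leukemias came from leaving out a leukemia 1 library.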

Other observations

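Genes that make or use NADPH, or that belong to the oxidative stress response, moved both ways in leukemia against pro-B cells. Of 20 listed, 19 were tested: 4 rose (21.1%), 3 fell (15.8%) and 12 did not pass. Of all genes tested 9.54% rose and 10.7% fell. The median log2 change of the 19 was 0.24. Txnrd1, a thioredoxin reductase that consumes NADPH, rose from 107 and 104 CPM to 361 and 274 CPM in leukemia 1 and 287 and 306 CPM in leukemia 92 (log2 change 1.54, SE 0.11, edgeR adjusted p = 0.011, 0.023 and 0.014 without leukemia 1 replicates 1 and 2). Hmox1, the heme oxygenase, rose 2.96 in log2 (edgeR adjusted p = 0.012; 0.086 once replicate 2 was removed), Gsr, the glutathione reductase, 1.43 (0.018, 0.062 and 0.18 without replicates 1 and 2), and the peroxiredoxin Prdx1 0.55 (0.046, 0.08 and 0.084). Hmox1 and Gsr were highest in leukemia 1 replicate 2, at 78.4 and 121 CPM, the library with most granulocyte transcripts, whose part was not tested. Nnt, the mitochondrial transhydrogenase, fell from 187 ± 11.8 CPM (SD, n = 2) to 78.4 ± 12.4 CPM (SD, n = 4), with an edgeR adjusted p of 0.015. Gclc, of glutathione synthesis, fell from 156 ± 9.3 to 78.6 ± 34.7 CPM with an edgeR adjusted p of 0.022, which became 0.22 once leukemia 1 replicate 2 was removed. Me3, a mitochondrial malic enzyme, was low throughout, at 0.592 and 1.09 CPM in pro-B cells and at 0 in all leukemia libraries but leukemia 92 replicate 1 (0.0411 CPM), and was called lower (adjusted p = 0.029).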
